A study of Mus musculus with 94 samples.

Results

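Oxidative phosphorylation is carried out by the protein complexes I to V of the mitochondrial inner membrane, and the nuclear genes for their parts are described here in the brains of wt and Mgmt-/- mice given MAM or vehicle. The members were the genes of the NADH dehydrogenase (Nduf), succinate dehydrogenase (Sdha, Sdhb, Sdhc and Sdhd), cytochrome bc1 (Uqcr), cytochrome c oxidase (Cox4 to Cox8) and ATP synthase (Atp5) families, found by symbol among probe sets that name a single gene. This gave 90 of the 18193 genes so named on the array, covered by 179 of 34945 probe sets, and each gene was read from its brightest probe set. Another 10 probe sets name a member together with another gene and were not used, so that Ndufs6 and Ndufa11 are not described and Ndufb4 was read from a dim probe set at a mean of 4.05 log2 units.

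The animals were male C57BL6 mice, 11 weeks old, either wt or Mgmt-/- on the same background. Mgmt-/- mice lack, in all cells, the methyltransferase that takes methyl groups off the O6 position of guanine in DNA. Each received a single intraperitoneal injection of MAM (methylazoxymethanol acetate, a methylating agent related to the toxin of cycad plants) or of vehicle (acetic acid in saline), and the right side of the brain was taken 6, 24, 48 or 168 hr later. The 16 groups of genotype, agent and time held 6 animals each, except 5 for wt vehicle at 48 hr, 5 for wt MAM at 168 hr and 5 for Mgmt-/- MAM at 168 hr once 1 array was left out. That array had a median of 13.59 log2 units over liver markers, against at most 6.52 on the 93 arrays used. It was taken to hold liver RNA. The median was over a shorter list than the 15 liver markers read later, without Ttr. The animal numbers of each genotype fall into 2 ranges (number sets 1 and 2), which were taken to be the 2 laboratories of the study.

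The electron transport chain moves electrons from NADH (complex I) and succinate (complex II) through complex III to oxygen at complex IV, and the proton gradient built on the way drives complex V, the ATP synthase. Neurons obtain most of their ATP in this way. Some subunits of complex IV exist as isoforms known from heart and skeletal muscle, lung or testis. All values below are log2 levels made by RMA (robust multi-array average), or differences of such levels, and in tissue RNA fewer cells of a type and less RNA per cell cannot be told apart.

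Promoters are shown for 4 of the members that were low after MAM in Mgmt-/- brain and that hold a motif of a factor known to act on genes of the respiratory chain. NRF1 was searched as GCGCATGCG and GABPA (also called NRF2) as CCGGAAGT, and both are activators of such genes. The sequences are from RefSeq, build GRCm38.p6, from 250 bases before to 50 after the start of the gene, written 5′ to 3′ along the gene, with motifs on either strand in capitals.
Uqcrc1 (chr9:108936398-108936697, plus strand): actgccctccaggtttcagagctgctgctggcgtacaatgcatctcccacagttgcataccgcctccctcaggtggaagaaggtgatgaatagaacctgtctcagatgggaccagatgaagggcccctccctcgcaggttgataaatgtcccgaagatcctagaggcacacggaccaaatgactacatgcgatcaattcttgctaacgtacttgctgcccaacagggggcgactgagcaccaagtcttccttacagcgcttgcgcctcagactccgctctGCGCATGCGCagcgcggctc
Uqcr11 (chr10:80406772-80407071, minus strand): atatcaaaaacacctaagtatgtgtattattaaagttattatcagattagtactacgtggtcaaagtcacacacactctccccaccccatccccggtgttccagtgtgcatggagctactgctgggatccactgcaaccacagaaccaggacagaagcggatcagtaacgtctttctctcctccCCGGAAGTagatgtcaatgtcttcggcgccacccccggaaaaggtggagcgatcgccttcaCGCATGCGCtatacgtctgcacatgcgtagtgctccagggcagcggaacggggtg
Uqcrh (chr4:116075021-116075320, minus strand): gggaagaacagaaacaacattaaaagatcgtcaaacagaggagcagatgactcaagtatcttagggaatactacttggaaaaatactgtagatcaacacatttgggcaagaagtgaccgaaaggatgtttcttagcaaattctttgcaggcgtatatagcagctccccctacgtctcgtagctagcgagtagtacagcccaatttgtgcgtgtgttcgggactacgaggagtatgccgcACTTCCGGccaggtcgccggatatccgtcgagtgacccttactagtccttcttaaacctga
Cox8a (chr19:7217567-7217866, minus strand): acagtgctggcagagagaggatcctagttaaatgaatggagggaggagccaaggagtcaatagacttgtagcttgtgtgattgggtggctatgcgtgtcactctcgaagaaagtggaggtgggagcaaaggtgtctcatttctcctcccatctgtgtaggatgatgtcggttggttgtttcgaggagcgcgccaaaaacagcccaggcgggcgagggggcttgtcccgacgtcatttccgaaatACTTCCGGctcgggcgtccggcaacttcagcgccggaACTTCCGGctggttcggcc
The capitals mark NRF1 in Uqcrc1, where the motif and its reverse complement overlap, NRF1 and GABPA in Uqcr11, GABPA in Uqcrh and GABPA at 2 places in Cox8a. Of the 90 members, 74 had a promoter in the table. NRF1 was found in 9 of the 74 (12.2%) and in 1.95% of all 27025 genes of the table. GABPA was found in 5 (6.76%) against 4.31%. YY1 (AAGATGGC) was found in 10 (13.5%) against 3.19%, and the motif of the estrogen-related receptors (TCAAGGTCA) in 2 (2.70%) against 0.466%. Among the 17491 protein-coding genes of the table the shares were 2.61% (NRF1), 5.69% (GABPA), 3.57% (YY1) and 0.377% (estrogen-related receptors). The GABPA share of the members was thus near that of protein-coding genes. All 4 motifs were searched on both strands, and the NRF1 and GABPA letters do not contain each other. The promoters of Uqcr10, Atp5g1 and Ndufa4 held none of the 4 motifs in this window. The matches are letters in a window and no evidence of binding.

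Most members were bright. Of the 90 genes, 70 had a mean above 10 log2 units and 12 a mean below 8. Among the dim ones were Cox8b at 6.07 and Cox7a1 at 5.68, isoforms of heart and muscle, and Cox4i2 at 5.08, an isoform of lung, while the mean over 9 muscle markers lay at 4.72 to 4.96 in the 16 groups. The brain label held, with group means of 11.38 to 11.49 over 12 neuron markers and 10.62 to 10.86 over 8 astrocyte markers. The Mgmt probe set was no check of the genotype, since it read 5.49 to 6.21 in wt and 5.09 to 6.45 in Mgmt-/- brain, and whether it lies inside the deleted part was not known.

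The first question was whether MAM changed the members in Mgmt-/- brain. The fits used limma, 1 for each time point, and a gene was called when its adjusted p was under 0.05 and its fold change above 1.3 (0.38 log2 units), among probe sets whose effects did not differ between the number sets (the laboratory filter). No member was called at any time. The counts were 0 of 42, 0 of 28, 0 of 82 and 0 of 72 members kept by the filter at 6, 24, 48 and 168 hr, where 1.69%, 0.508%, 0.196% and 0.642% of the genes kept were called. At an unadjusted p under 0.05 there were 11, 8, 11 and 18 of these members, and an ordinary linear model also called 0 at each time. The filter kept 36.0% of all genes at 6 hr and 45.4% at 24 hr, so that much was left untested at the early times. Leaving out 1 animal in turn gave 0 to 3 members called at 6 hr (above 0 for each of 6 animals), 0 to 1 at 48 hr (a vehicle animal of Mgmt-/-), 0 to 1 at 168 hr (a MAM animal of Mgmt-/-) and 0 at 24 hr.

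The differences were small and mostly negative. Over all 90 members, the median of MAM minus vehicle in Mgmt-/- brain was -0.068, -0.11, -0.039 and -0.071 at 6, 24, 48 and 168 hr, against 0.018, 0.020, 0.0064 and -0.0061 over all genes. Of the 90, 65, 77, 65 and 71 were below 0. Leaving out 1 animal in turn gave medians of -0.091 to -0.051 at 6 hr, -0.13 to -0.078 at 24 hr, -0.087 to -0.0031 at 48 hr and -0.087 to -0.039 at 168 hr. The value at 48 hr thus turned on single animals, with -0.0031 when a MAM animal was left out and -0.087 when a vehicle animal was, and at 168 hr -0.039 was reached without a MAM animal, all of them Mgmt-/-. In number set 1 the median was -0.063, -0.0042, -0.024 and -0.046, and in number set 2 it was -0.13, -0.19, -0.077 and -0.093, so that the value at 24 hr lay almost wholly in number set 2. The SD of the members' level between animals of a group (the per-array median deviation over the 90 genes, pooled over the groups) was 0.068.

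By adjusted p alone, without the laboratory filter and the fold threshold (a rule added after the data were seen), 17 of 90 members (18.9%) were lower and 0 higher at 6 hr, where 1.96% of all genes were lower. At 24 hr 6 (6.67%) were lower against 0.715% of genes. At 48 hr it was 1 (1.11%, Ndufa10, an accessory subunit of complex I) against 0.264%, and at 168 hr 1 (1.11%, Uqcrq) against 0.55%. All of these had the same sign in both number sets, but they were picked on both sets together, so this is no separate support. The 95% intervals of the members were narrower than those of other genes, with a median half-width of 0.14 against 0.20 over all genes at 6 hr. Past 1.3-fold at 6 hr were Atp5g1, Cox8a, Ndufa6, Ndufaf6 and Uqcrq. None of these was kept by the laboratory filter at that time.

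**Figure D1:**
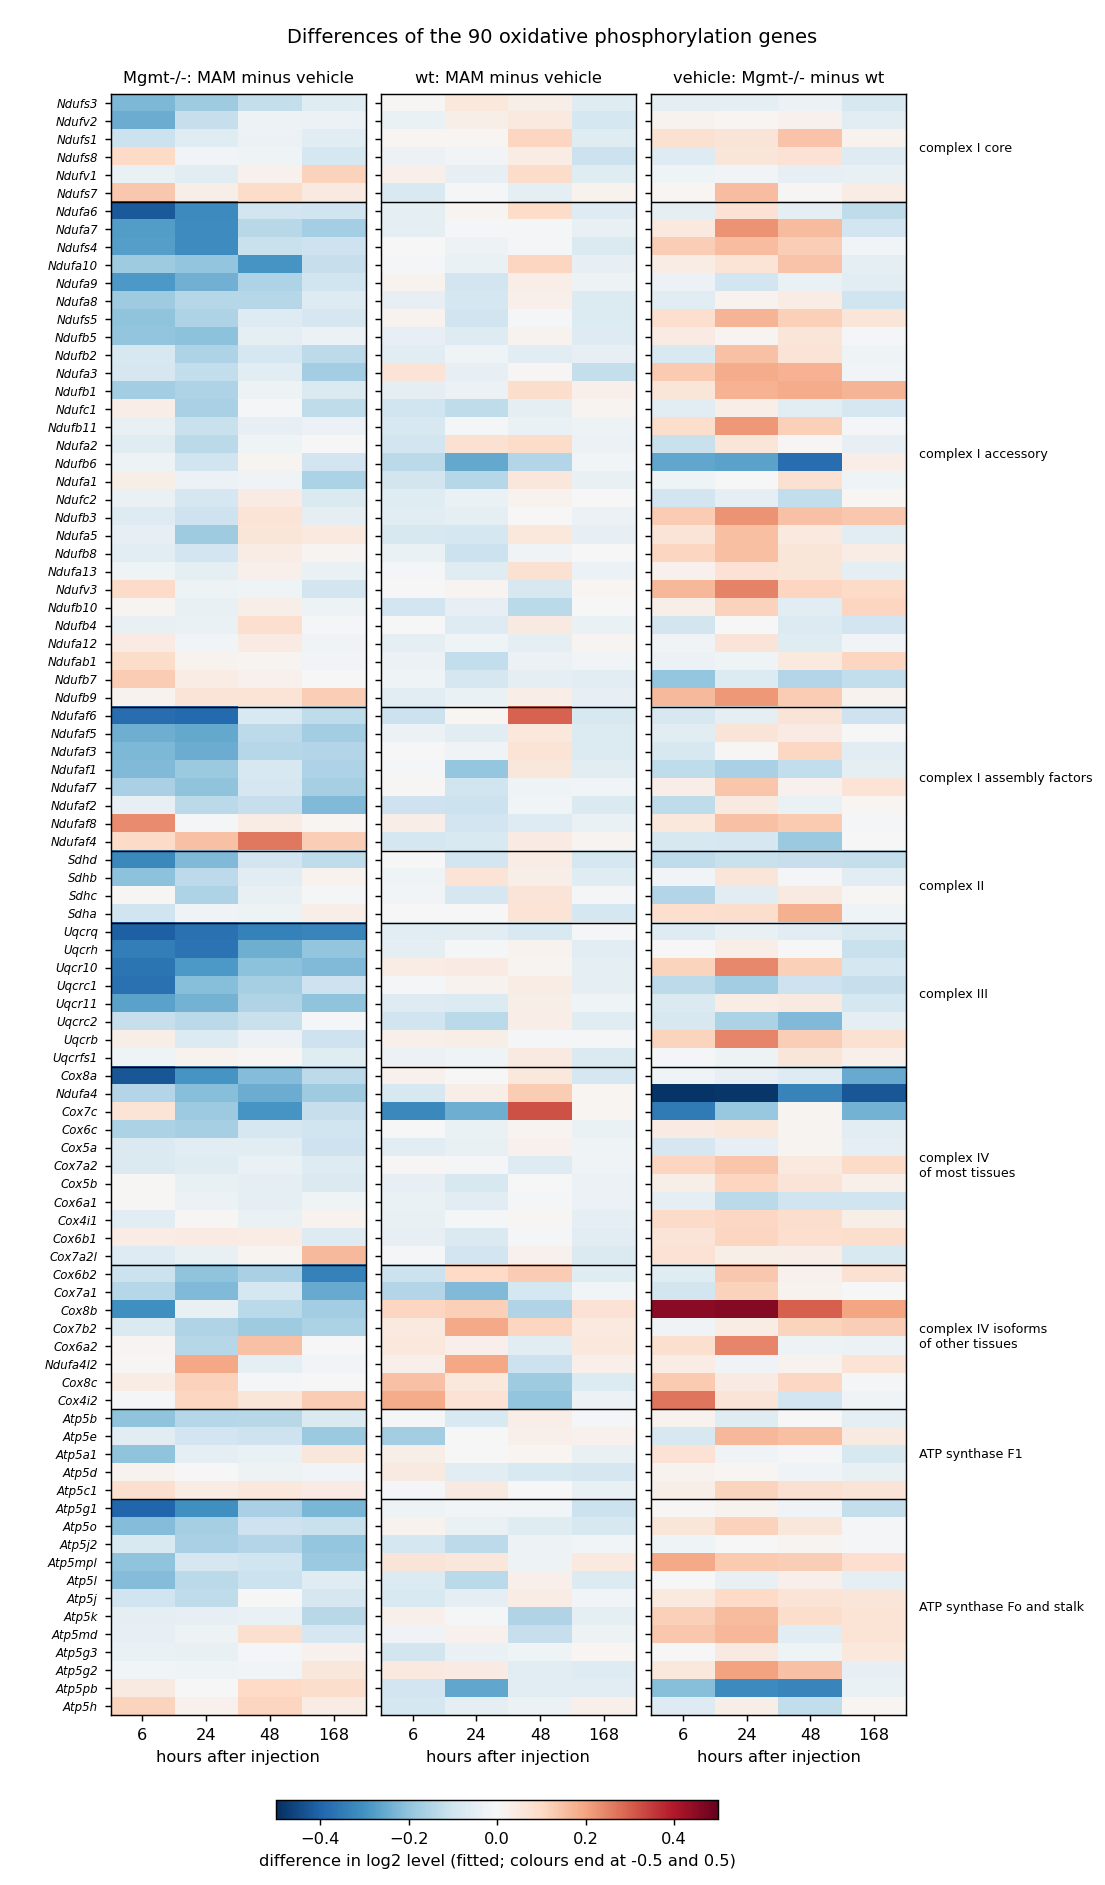
Fitted differences in log2 level of the 90 genes (rows, by role) at 6, 24, 48 and 168 hr (columns), for the comparisons of agent and of genotype. Complex III has a median after MAM in Mgmt-/- brain of -0.31 at 6 hr, and Ndufa4 is lower in Mgmt-/- than in wt vehicle brain at all 4 times.

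Complex III passes electrons from ubiquinol to cytochrome c. Over its 8 genes the median difference was -0.31, -0.23, -0.16 and -0.15 at 6, 24, 48 and 168 hr, and 7, 7, 7 and 8 of the 8 were below 0. By adjusted p alone 5, 2, 0 and 1 of the 8 were lower. Number set 1 had medians of -0.17, -0.10, -0.11 and -0.15 and number set 2 of -0.38, -0.32, -0.21 and -0.19. In wt brain they were -0.037, -0.014, 0.022 and -0.048. In Mgmt-/- brain complex III had the lowest median of the 9 roles at 6, 24 and 48 hr, while at 168 hr the assembly factors of complex I, at -0.15, could not be told from complex III. The order depended on the animals, since in number set 1 the assembly factors were lower at 6 and 24 hr (-0.23 and -0.15), complex II was lower at 24 hr (-0.13) and the complex IV isoforms of other tissues were lower at 168 hr (-0.16), and in number set 2 the assembly factors were lower at 168 hr (-0.19). Differences between the roles were not tested.

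Uqcrq encodes a small subunit of complex III that lies near its ubiquinone-binding site. At 6 hr its level was 10.61 to 10.76 (median 10.65) in the 6 Mgmt-/- vehicle animals and 10.13 to 10.38 (median 10.27) in the 6 MAM animals. At 24 hr it was 10.53 to 10.75 (median 10.68) after vehicle and 9.95 to 10.49 (median 10.33) after MAM. The groups did not overlap at these times, which was also so, with MAM below vehicle, for 1.21% and 0.852% of all genes. At 48 hr the Uqcrq level was 10.35 to 10.79 (median 10.69) after vehicle and 10.08 to 10.45 (median 10.31) after MAM, and at 168 hr it was 10.50 to 10.77 (median 10.70) and, in the 5 animals left, 10.18 to 10.53 (median 10.40), so that the groups overlapped. In wt brain it was 10.47 to 10.93 after vehicle and 10.44 to 10.89 after MAM over all times. After MAM the Mgmt-/- animals lay below the wt animals in Uqcrq without overlap at 6, 48 and 168 hr, as did 4.08%, 4.63% and 2.67% of all genes.

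The fitted Uqcrq difference in Mgmt-/- brain was -0.41 (SE 0.055, limma adjusted p = 4.2e-04 without the filter) at 6 hr and -0.37 (SE 0.079, limma adjusted p = 0.018 without the filter) at 24 hr. It was -0.34 (SE 0.085, limma adjusted p = 0.074 with the filter) at 48 hr and -0.33 (SE 0.066, limma adjusted p = 0.017 with the filter) at 168 hr. Set 1 of the animals gave -0.31, -0.16, -0.31 and -0.28 and set 2 gave -0.51, -0.58, -0.37 and -0.36, negative each time. In wt brain Uqcrq lay between -0.075 and -0.0060. The interaction, the MAM difference in Mgmt-/- minus that in wt brain, was -0.36, -0.32, -0.26 and -0.32 for Uqcrq with limma adjusted p of 0.12, 0.71, 0.27 and 0.33 without the filter, so that a difference between the genotypes was not shown. The other 3 Uqcrq probe sets were dim, at means of 4.31 to 5.06.

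Uqcrh is the hinge protein of complex III, next to cytochrome c1. In Mgmt-/- brain the Uqcrh level at 6 hr was 11.70 to 11.92 (median 11.79) after vehicle and 11.28 to 11.69 (median 11.44) after MAM, without overlap. At 24 hr it was 11.64 to 11.93 (median 11.81) and 11.20 to 11.63 (median 11.42), again without overlap. MAM lay below vehicle without overlap for 8 of 90 members at 6 hr and 7 at 24 hr, and for 1.21% and 0.852% of all genes. The fitted Uqcrh difference was -0.35 (SE 0.066, limma adjusted p = 0.0051 without the filter) at 6 hr and -0.37 (SE 0.080, limma adjusted p = 0.021 without the filter) at 24 hr, and -0.24 and -0.20 later. The number sets were apart for Uqcrh, with -0.14, -0.094, -0.16 and -0.00064 in set 1 and -0.55, -0.64, -0.33 and -0.37 in set 2. A second Uqcrh probe set, at a mean of 11.53 against 11.69, gave -0.17, -0.17, -0.14 and -0.13, which, as for every probe set that is not the brightest, are plain differences of group means.

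Uqcr10 encodes another small subunit of complex III. In Mgmt-/- brain the Uqcr10 level at 6 hr was 10.83 to 11.10 (median 10.996) after vehicle and 10.40 to 10.87 (median 10.55) after MAM, with an overlap. The fitted Uqcr10 differences were -0.37, -0.29, -0.21 and -0.22 at the 4 times. Its other 2 probe sets gave -0.28, -0.36, -0.25 and -0.39 and -0.40, -0.49, -0.37 and -0.38, negative at each time as well. Uqcr11, a further small subunit, differed by -0.27 (SE 0.056, limma adjusted p = 0.0063 with the filter) at 6 hr, short of 1.3-fold, and by -0.24, -0.15 and -0.20 later.

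Uqcrc1, a core protein of complex III, differed by -0.37 (SE 0.056, limma adjusted p = 4.5e-04 with the filter) at 6 hr, the smallest adjusted p of the members kept then and just short of 1.3-fold. The later Uqcrc1 differences were -0.21, -0.17 and -0.10. Uqcrc2, the other core protein, lay between -0.14 and -0.0056, but its second probe set, at a mean of 11.29 against 11.42, gave -0.47, -0.32, -0.28 and -0.057. Uqcrfs1, the Rieske iron-sulfur protein, lay between -0.060 and 0.016 and had the smallest range of the 16 group means of all members, 0.098. Uqcrb, a subunit near the ubiquinone site, lay between -0.10 and 0.028. Differences between the subunits were not tested.

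**Figure D2:**
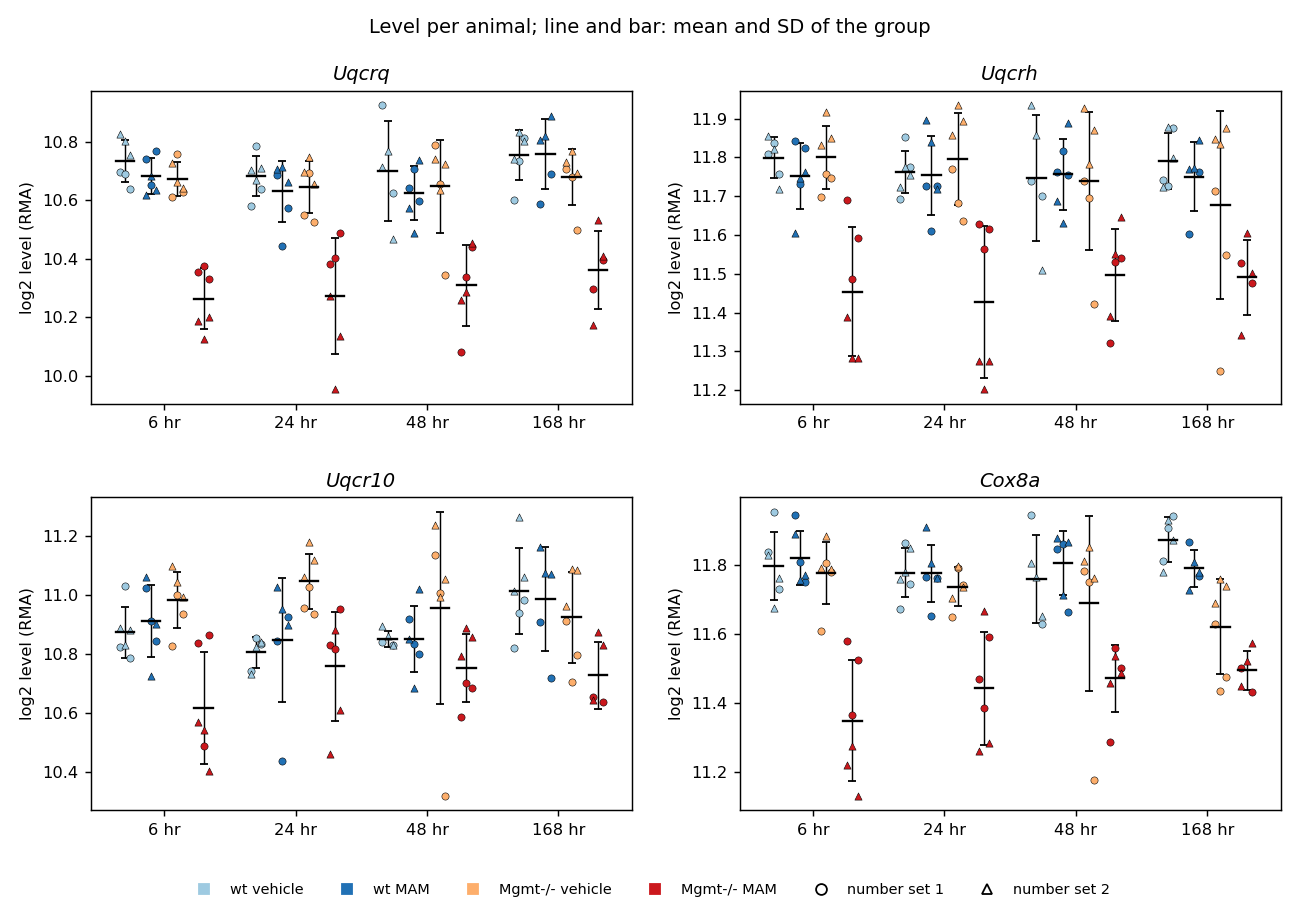
Log2 level (RMA) of Uqcrq, Uqcrh, Uqcr10 and Cox8a in each animal by time after injection (hr), coloured by group, with circles for number set 1, triangles for number set 2 and the group mean and SD. At 6 hr the Mgmt-/- MAM animals lie below the Mgmt-/- vehicle animals without overlap for Uqcrq, Uqcrh and Cox8a, as for 1.21% of all genes.

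Complex I takes up electrons from NADH and is built from core subunits, many accessory subunits and separate assembly factors. Over the 6 core genes the median after MAM in Mgmt-/- brain was -0.071, -0.059, -0.023 and -0.043 at the 4 times, over the 28 accessory genes -0.050, -0.12, -0.019 and -0.068, and over the 8 assembly factors -0.19, -0.19, -0.082 and -0.15. By adjusted p alone 2, 0, 0 and 0 core genes, 4, 2, 1 and 0 accessory genes and 1, 0, 0 and 0 assembly factors were lower. Ndufs1, the largest core subunit, lay between -0.11 and -0.027, and Ndufv1, the flavoprotein that takes up NADH, between -0.056 and 0.11.

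Among the accessory subunits, Ndufa6 differed by -0.42 (SE 0.073, limma adjusted p = 0.0029 without the filter) at 6 hr, made up of -0.24 in set 1 and -0.60 in set 2 of the animals, and by -0.32, -0.095 and -0.098 later. Ndufs4, which is needed for a stable complex I, differed by -0.28 (SE 0.057, limma adjusted p = 0.0051 with the filter) at 6 hr and -0.31 at 24 hr. Ndufa7 differed by -0.31 (SE 0.060, limma adjusted p = 0.0072 with the filter) at 24 hr, and all 5 Ndufa7 probe sets lay between -0.44 and -0.28 then. The assembly factor Ndufaf6, read at a mean of 7.0, differed by -0.38 (SE 0.093, limma adjusted p = 0.025 without the filter) at 6 hr and -0.39 at 24 hr. Ndufaf4, also an assembly factor, had the largest positive difference of the members at 48 hr, 0.26 (SE 0.11, limma adjusted p = 0.50 with the filter).

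Complex II links the citric acid cycle to the chain, and its medians were -0.15, -0.14, -0.047 and 0.0058 over 4 genes. Sdhd, a membrane anchor, differed by -0.32 (SE 0.070, limma adjusted p = 0.012 without the filter) at 6 hr, and a dim second Sdhd probe set at 7.21 gave -0.0039. Sdha, the flavoprotein, lay between -0.10 and 0.034, and Sdhc, the other anchor, between -0.15 and 0.0074. Sdhb, the iron-sulfur subunit, differed by -0.20 (SE 0.054, limma adjusted p = 0.026 with the filter) at 6 hr and lay between -0.20 and 0.016 over the 4 times. Without the filter its smallest limma adjusted p was 0.051, so that Sdhb was not among the members lower by adjusted p alone.

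Complex IV reduces oxygen, and its medians were -0.064, -0.054, -0.045 and -0.074 over the 11 subunits of most tissues. Cox8a, one of its small subunits, had the largest difference of all members at 6 hr. In Mgmt-/- brain the Cox8a level was 11.61 to 11.88 (median 11.79) after vehicle and 11.13 to 11.58 (median 11.32) after MAM at 6 hr. The groups did not overlap, as for 1.21% of all genes with MAM below vehicle. At 24 hr the Cox8a level was 11.65 to 11.80 (median 11.74) and 11.26 to 11.67 (median 11.43), with an overlap. The fitted Cox8a difference was -0.43 (SE 0.070, limma adjusted p = 0.0020 without the filter) at 6 hr, with -0.24 and -0.61 in number sets 1 and 2, and -0.30, -0.22 and -0.13 later. A second Cox8a probe set, at 11.67 against 11.69, gave -0.37, -0.32, -0.26 and -0.13.

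The other subunits of complex IV differed in size, and none passed by adjusted p in Mgmt-/- brain at any time. Ndufa4, taken up again with the genotypes, lay between -0.25 and -0.15. Cox4i1 lay between -0.056 and 0.019, Cox6a1 between -0.045 and 0.0043 and Cox7a2 between -0.074 and -0.034, each the form of most tissues. Of the forms of other tissues, Cox6a2 lay between -0.14 and 0.15, Cox7a1 between -0.25 and -0.087, Cox8b between -0.31 and -0.038, Cox4i2 between -0.0062 and 0.13 and Ndufa4l2, a relative of Ndufa4, between -0.047 and 0.19. These forms were dim, at means of 5.08 to 7.06. Cox7c, a subunit of most tissues, was read at only 4.98 and lay between -0.30 and 0.069.

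The ATP synthase uses the proton gradient to make ATP. Its F1 head, which holds the catalytic sites, had medians of -0.058, -0.049, -0.035 and -0.012 over 5 genes, and its Fo part and stalk, which hold the proton path and the link to F1, -0.062, -0.063, -0.024 and -0.084 over 12. Atp5a1, the alpha subunit of the head, lay between -0.20 and 0.057 and Atp5b, the beta subunit, between -0.20 and -0.070. Atp5g1, a gene for the c ring, differed by -0.40 (SE 0.066, limma adjusted p = 0.0022 without the filter) at 6 hr and by -0.31, -0.16 and -0.23 later. Atp5j2, of the Fo part, lay between -0.20 and -0.077.

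**Figure D3:**
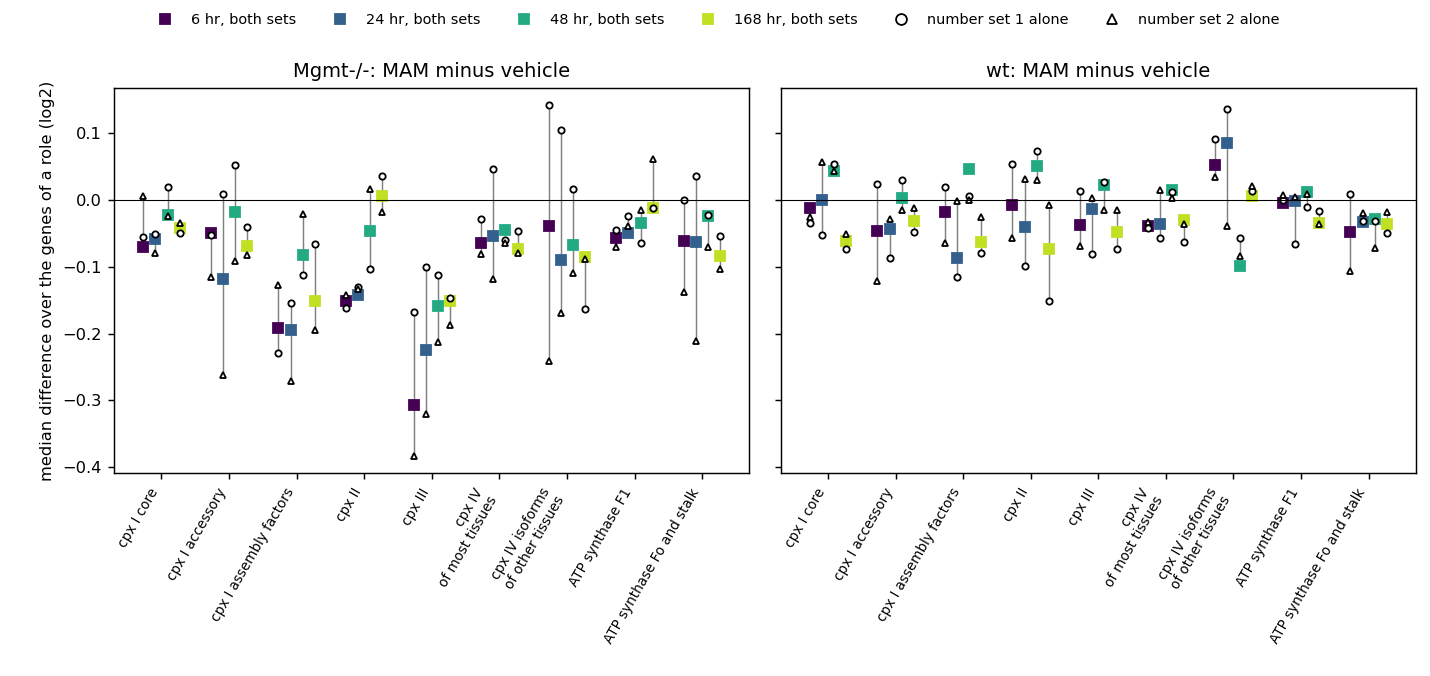
Median difference (log2) over the genes of each role, MAM minus vehicle, in Mgmt-/- brain and in wt brain, at each time and in number sets 1 and 2. The complex III medians in Mgmt-/- brain lie from -0.31 to -0.15, with number set 2 below number set 1, and in number set 1 the assembly factors of complex I are lower than complex III at 6 and 24 hr.

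An RNA index was compared between MAM and vehicle as well. For each array, the log2 level of the 5′ control probe set was taken from that of the 3′ one, for Gapdh and for actin, and the mean of both is called the 3'/5' index, which is larger when fewer labelled transcripts reach their 5′ end. In Mgmt-/- brain it was 0.417 to 0.460 after vehicle and 0.570 to 0.750 after MAM at 6 hr, 0.433 to 0.533 and 0.490 to 0.727 at 24 hr, and 0.360 to 0.519 and 0.487 to 0.649 at 48 hr. The differences were 0.199, 0.146 and 0.117 (2-sided exact permutation within number sets, p = 0.0050, 0.0050 and 0.010, the first 2 the smallest that could be reached, and adjusted over 8 tests 0.020, 0.020 and 0.027). At 168 hr the index differed by -0.037 (exact permutation p = 0.68). In wt brain it differed by 0.064, 0.063, 0.00058 and 0.063 (exact permutation p = 0.12, 0.020, 0.99 and 0.015, and adjusted over 8 tests 0.17, 0.032, 0.99 and 0.030). The index was thus also higher after MAM in wt brain at 24 and 168 hr, but by another pair. There the Gapdh pair gave 0.079 and 0.097 and the actin pair 0.047 and 0.029. The Mgmt-/- differences lay in the actin pair, at 0.38, 0.30 and 0.22, while the Gapdh pair gave 0.020, -0.0070 and 0.013.

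With the index as a covariate, and without the laboratory filter, 0, 0, 0 and 1 members passed by adjusted p alone at 6, 24, 48 and 168 hr. The one at 168 hr was Uqcrq, at -0.32 (SE 0.067, limma adjusted p = 0.016). Over all genes the number went from 580 to 1 at 6 hr, from 154 to 3 at 24 hr, from 62 to 6 at 48 hr and from 168 to 289 at 168 hr. The median SE of the members rose from 0.065 to 0.11 at 6 hr. The median over the 90 members was -0.096, -0.14, 0.028 and -0.069 with the covariate, so that it was no smaller in size at 6 and 24 hr and turned positive at 48 hr. Over complex III it was -0.30, -0.21, -0.045 and -0.16, against -0.16 at 48 hr without it, and the assembly factors of complex I were then lower at 24 and 168 hr (-0.22 and -0.16). Uqcrq was -0.41, -0.48, -0.20 and -0.32 with it, Cox8a -0.54, -0.16, -0.13 and -0.15 and Atp5g1 -0.44, -0.33, 0.028 and -0.23. The part of RNA quality in the early differences was not tested beyond this.

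Within groups and number sets, the members' level had a Pearson r of -0.16 with the index over 93 arrays, given as a description. For single members the median r was -0.11, with 73 of 90 below 0, against -0.0031 and 50.8% over all genes. The lowest r were those of Uqcrh (-0.37), Ndufa10 (-0.37) and Ndufaf1, an assembly factor of complex I (-0.31). The highest were those of Atp5md, a small subunit of the ATP synthase (0.29), Atp5h, of its stalk (0.21), and Ndufb10, an accessory subunit of complex I (0.19). Uqcrq was at -0.074.

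**Figure D4:**
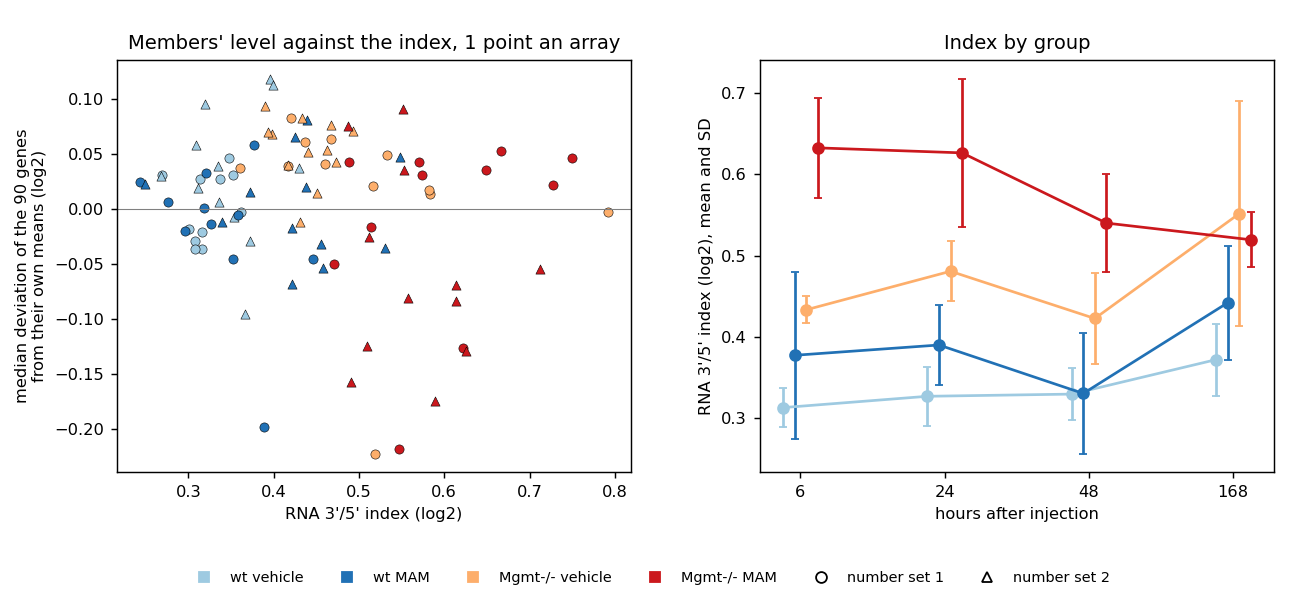
The members' level (median deviation of the 90 genes from their own means, log2) against the RNA 3'/5' index (log2) for the 93 arrays, and the index by group and time (hr) as mean and SD. The level spans -0.22 to 0.12, and the index of Mgmt-/- MAM brain has its highest group mean, 0.633, at 6 hr.

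Members varied together from animal to animal. With the mean of each group and number set removed, pairs of members had a mean Pearson r of 0.32 over the 93 arrays, against 0.030 over pairs of all genes. It was 0.50 among the assembly factors of complex I, 0.47 among its core subunits, 0.30 in complex III and 0.10 among the complex IV isoforms of other tissues. These are descriptions over arrays that share their normalization.

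Of the other gene lists, those of ribosomal proteins, metabolism and assembly had negative medians in Mgmt-/- brain at each time, and the regulators positive ones. Over 76 mitochondrial ribosomal proteins the median of MAM minus vehicle was -0.12, -0.14, -0.066 and -0.079 at the 4 times, with 13, 4, 0 and 0 lower by adjusted p alone. Over 48 cytosolic ribosomal proteins it was -0.075, -0.10, -0.037 and -0.027, with 8, 1, 0 and 0 lower. By the same rule 1.96%, 0.715%, 0.264% and 0.55% of all genes were lower, and 17, 6, 1 and 1 of the 90 members. Lower genes at 6 hr were thus not particular to the members. The 24 genes of the citric acid cycle had -0.065, -0.031, -0.023 and -0.031 and the 18 of glycolysis -0.058, -0.064, -0.087 and -0.044. The 28 assembly factors of complexes III to V and of copper delivery had -0.015, -0.081, -0.033 and -0.055, and 20 other genes of electron carriers and energy transfer -0.055, -0.065, -0.034 and -0.047. The 25 regulators of mitochondrial genes had 0.070, 0.016, 0.016 and 0.023.

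Cell type markers were read in the same comparison. The median over the neuron markers was -0.0012, 0.036, -0.043 and -0.035 at the 4 times, over the astrocyte markers 0.12, -0.0026, -0.020 and -0.070, over 7 oligodendrocyte markers 0.12, -0.039, -0.027 and -0.30, over 8 microglial markers -0.085, -0.18, -0.22 and -0.23, over 7 endothelial markers -0.13, -0.10, -0.22 and -0.31, over 6 choroid plexus markers 0.096, -0.11, -0.022 and 0.053 and over 15 liver markers 0.34, 0.43, 0.15 and 0.16. By adjusted p alone 0 neuron markers passed in either direction at each time, and 2, 1, 0 and 0 liver markers were higher, against 1.23%, 0.132%, 0.077% and 0.374% of all genes. Lower by adjusted p alone were 1 endothelial marker at 6 hr, 1 of 3 red blood cell markers at 48 hr and, at 168 hr, 2 oligodendrocyte markers and 1 each for astrocytes, microglia, endothelium and red blood cells. Of all genes 1.96%, 0.264% and 0.55% were lower at 6, 48 and 168 hr. By the rule with filter and fold, 2 oligodendrocyte markers and 1 astrocyte marker were called lower at 168 hr, 1 red blood cell marker was at 48 hr and 1 at 168 hr, and 3 and 1 liver markers were called higher at 6 and 24 hr. By that rule 1.69%, 0.508%, 0.196% and 0.642% of the genes kept were called, in either direction, at 6, 24, 48 and 168 hr. The part of the markers in the members' values was not tested.

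In wt brain no change of the members after MAM was detected. The counts by limma were 0 of 42, 0 of 28, 0 of 82 and 0 of 72 members at the 4 times, where 0% of genes were called at each time, and 0 of 90 passed by adjusted p alone at each time. Unadjusted p was under 0.05 for 0, 1, 2 and 0 of the members kept. The medians over the 90 members were -0.029, -0.033, 0.012 and -0.036. Of the 90, 84, 81, 85 and 89 had a 95% interval inside 1.3-fold either way, against 71, 67, 79 and 84 in Mgmt-/- brain.

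The interaction of genotype and agent was then tested, and 0 of 42, 0 of 28, 0 of 82 and 0 of 72 members were called by limma, where 0.168%, 0.0605%, 0.501% and 0.101% of genes were. Unadjusted p was under 0.05 for 8, 5, 7 and 5 of them, and 0 of the 90 passed by adjusted p alone at each time. The intervals were wider here, with 58, 62, 54 and 76 of 90 inside 1.3-fold. By these 2 rules on the brightest probe sets, the lower values in Mgmt-/- brain were therefore not shown to differ from those in wt brain for any member. Some alternatives called single members, and leaving out 1 animal in turn gave 0 to 2 at 6 hr and 0 to 1 at 48 hr.

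The genotypes were also compared without MAM. In vehicle brain 0 of 42, 0 of 28, 1 of 82 and 0 of 72 members were called by limma at 6, 24, 48 and 168 hr, where 2.31%, 3.11%, 2.47% and 0.0773% of genes were called. Unadjusted p was under 0.05 for 9, 10, 7 and 2 of them. By adjusted p alone without the laboratory filter 1, 7, 2 and 1 of 90 passed (1.11%, 7.78%, 2.22% and 1.11%), where 6.58%, 7.88%, 5.17% and 0.495% of genes did, so that the share of members was at or below the background at the first 3 times.

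The member called was Ndufb6, an accessory subunit of complex I. At 48 hr its level was 10.95 to 11.46 (median 11.41) in the 5 wt and 10.64 to 11.20 (median 10.95) in the 6 Mgmt-/- vehicle animals, with an overlap. The Ndufb6 difference was -0.38 (SE 0.11, limma adjusted p = 0.050 with the filter), just past both thresholds, and Ndufb6 was still called for 4 of the 23 animals left out in turn. The count of members called was 0 for 18 of these animals, 1 for 4 and 2 for 1. With the index as a covariate the Ndufb6 difference was -0.37 (limma adjusted p = 0.13 without the filter). Number sets 1 and 2 gave -0.42 and -0.32. At the other times the Ndufb6 difference was -0.26 (6 hr), -0.27 (24 hr) and 0.034 (168 hr). The second Ndufb6 probe set, at 11.05 against 11.08, gave -0.024, 0.016, 0.040 and -0.072 at the 4 times, so that the difference was seen in 1 of 2 probe sets. After MAM in Mgmt-/- brain this second probe set gave -0.31, -0.27, -0.16 and -0.060, and the brightest one -0.026, -0.10, 0.012 and -0.058.

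Uqcrb, and Atp5pb of the ATP synthase stalk, had probe sets that differed in the same way. After MAM in Mgmt-/- brain at 6 hr the brightest probe sets gave 0.028 for Uqcrb and 0.044 for Atp5pb, and the second ones -0.32 and -0.30. Of the members, 38 have a second probe set above 8, and over these the median difference was -0.039, -0.064, -0.033 and -0.040 by the brightest and -0.13, -0.17, -0.064 and -0.089 by the second probe set. The sign was the same in 23, 30, 23 and 28 of the 38. The brightest probe sets thus gave the smaller medians at each time.

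Ndufa4 had the largest range of the 16 group means of all members, 0.78. It was long counted with complex I and is now placed in complex IV. In vehicle brain the Ndufa4 level at 6 hr was 11.65 to 11.99 (median 11.72) in wt and 11.10 to 11.41 (median 11.28) in Mgmt-/- animals, and at 24 hr it was 11.63 to 11.91 (median 11.70) and 10.98 to 11.42 (median 11.24). At 168 hr it was 11.56 to 11.81 (median 11.67) and 11.05 to 11.39 (median 11.29), and at these 3 times the genotypes did not overlap, which was also so, with Mgmt-/- below wt, for 2.18%, 3.52% and 0.693% of all genes. At 48 hr it was 11.22 to 11.98 (median 11.69) in 5 wt and 11.07 to 11.55 (median 11.36) in 6 Mgmt-/- animals, with an overlap. After MAM Ndufa4 was 11.45 to 12.08 in wt and 10.81 to 11.57 in Mgmt-/- animals over all times, without overlap at any one time, as for 4.08%, 2.24%, 4.63% and 2.67% of all genes.

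The Ndufa4 difference between Mgmt-/- and wt vehicle brain was -0.49 (SE 0.089, limma adjusted p = 9.9e-04 without the filter) at 6 hr and -0.49 (SE 0.095, limma adjusted p = 0.0017 without the filter) at 24 hr. It was -0.34 (SE 0.11, limma adjusted p = 0.099 with the filter) at 48 hr and -0.43 (SE 0.086, limma adjusted p = 0.030 without the filter) at 168 hr. Number set 1 gave -0.61, -0.66, -0.53 and -0.52 and number set 2 -0.37, -0.31, -0.18 and -0.34. With the index as a covariate Ndufa4 differed by -0.46, -0.31, -0.28 and -0.30, with limma adjusted p of 0.023, 0.16, 0.28 and 0.46. The index itself was higher in Mgmt-/- vehicle brain, with group means of 0.434, 0.481, 0.423 and 0.552 against 0.313, 0.327, 0.330 and 0.372 in wt, and its part was not tested beyond this. A single probe set reads Ndufa4.

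**Figure D5:**
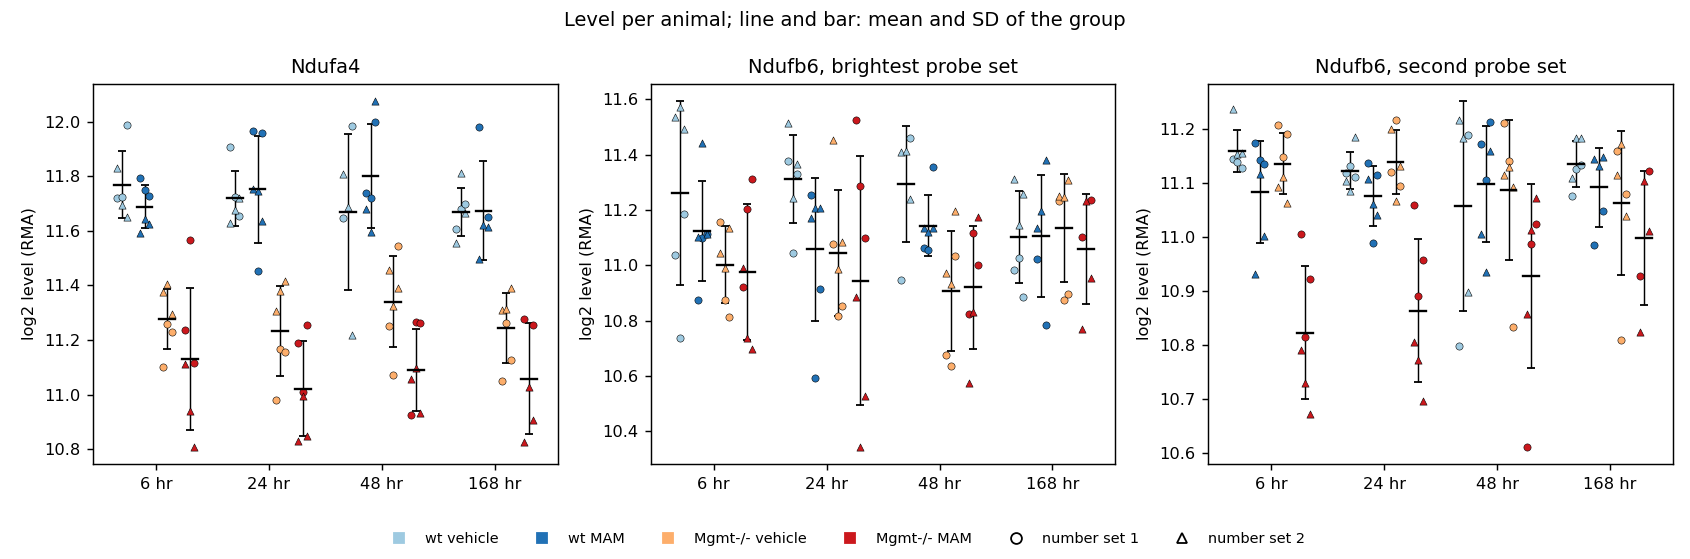
Log2 level (RMA) in each animal by time after injection (hr) of Ndufa4 and of the brightest and the second probe set of Ndufb6, coloured by group, with circles for number set 1, triangles for number set 2 and the group mean and SD. Mgmt-/- vehicle animals lie below wt vehicle animals for Ndufa4 without overlap at 6, 24 and 168 hr, as for 2.18%, 3.52% and 0.693% of all genes.

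Other members passed by adjusted p alone between the genotypes, in shares at or below those of all genes at 24 and 48 hr. With the index as a covariate Uqcrb and Atp5pb passed at 24 hr and Atp5pb at 48 hr, while Cox8b, Ndufa7, Ndufb3, Ndufb11 and Ndufv3 did not. Without it, at 24 hr Uqcrb differed by 0.24 (SE 0.051, limma adjusted p = 0.0034 with the filter), higher in Mgmt-/- brain, while its second probe set gave -0.036. Cox8b differed by 0.46 (SE 0.14, limma adjusted p = 0.044 without the filter) at 24 hr, also higher. Atp5pb differed by -0.33 (SE 0.083, limma adjusted p = 0.021 with the filter) at 48 hr, lower in Mgmt-/- brain, with -0.18 in its second probe set. The others at 24 hr were Ndufa7, Ndufb3, Ndufb11 and Ndufv3 of complex I, all higher, by 0.22 to 0.25.

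Time after the injection was the last factor. In vehicle brain 0 of 90 members were called over the 4 times in wt and 0 of 90 in Mgmt-/- brain by limma's moderated F test, where 0.346% and 0% of genes were called. Unadjusted p was under 0.05 for 15 members in wt and 1 in Mgmt-/- brain. Over all 16 groups the range of group means had a median of 0.25 for the members and 0.32 for all genes. It passed 1.3-fold for 15 of 90 members (16.7%) and for 33.6% of all genes.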

How the data were processed

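RNA of 94 samples, given as right brain sides, was measured by the authors on the Affymetrix Mouse Genome 430 2.0 array, which reads transcripts near their 3′ end. The array left out of the comparisons was taken to hold liver RNA by its markers. The deposited values are log2 levels that the authors made with RMA in the affy package at its defaults (background correction, quantile normalization and median polish over all arrays); no version was stated. Probe sets were named from the platform annotation, and 64 control probe sets were left out of the fits. The 2 number sets of animals were taken to be the laboratories of the study, an inference from the animal numbers.

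For each time point, limma 3.58.1 in R 4.3.3 fitted genotype, agent, their interaction and number set to the brain arrays, with empirical Bayes moderation and Benjamini-Hochberg adjustment over the probe sets kept. The laboratory filter kept probe sets with p above 0.15 in a joint F test of 3 interactions with the number set. Replicates are separate animals. Alternatives left out the filter, the fold threshold, the number set or single animals, added the RNA 3'/5' index, used an ordinary linear model, cyclic loess, bright probe sets, any probe set of a gene, all arrays at once, 1 number set, or all 94 arrays. Those that left out both filter and fold threshold, the filter with the index added, or single animals from the medians were chosen after seeing the data. The fits were tested on simulated data. Members and gene lists were chosen with earlier results of these data known. Genes were named when called, when among the 2 of a complex with the largest mean size of the MAM differences, when on a list of well-known subunits, when among the 3 highest or 3 lowest in correlation with the index, or when of the largest range of group means in their complex. Others (Uqcr10, Uqcr11, Ndufa7, Ndufaf4, Atp5pb and those listed by adjusted p alone) were named after their values were seen. Summaries were made with Python 3.11.15, pandas 2.3.3 and numpy 2.4.6, and figures with matplotlib 3.10.9.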

Additional observations from a re-analysis of the deposited data

Results flagged for a closer look

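Of 128 sets of values of 1 measure in 1 group checked for a sample that stands apart, 12 held one, and chance alone flags about 1 in 20. An Mgmt-/- vehicle animal at 48 hr was the lowest of its group in 4 of them. Its members' level was -0.22 against 0.014 for the next animal. Its Uqcrq level was 10.35 against 10.64, its Uqcr10 level 10.32 against 10.99 and its Cox8a level 11.18 against 11.75. A wt MAM animal at 24 hr was lowest in the members' level, at -0.20 against -0.054, and in Uqcr10, at 10.44 against 10.84.

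Single values stood apart in 6 other groups. Cox8a was 11.29 in an Mgmt-/- MAM animal at 48 hr, with the next at 11.46. Uqcrq was 10.50 in an Mgmt-/- vehicle animal at 168 hr, with the next at 10.68. The members' level was -0.012 in an Mgmt-/- vehicle animal at 6 hr, with the next at 0.039. Ndufb6 was 11.35 in a wt MAM animal at 48 hr, with the next at 11.13, and Ndufa4 was 11.91 in a wt vehicle animal at 24 hr, with the next at 11.72. The RNA 3'/5' index was 0.750 in an Mgmt-/- MAM animal at 6 hr, with the next at 0.625.

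The Mgmt-/- MAM array at 168 hr that was left out of all comparisons had a median of 13.59 over the shorter list of liver markers. On that list the other arrays had a median of 4.63. The index of the array left out was 0.913, above the highest of the other arrays at 0.792, and its members' level was -0.054.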

How the results depend on the processing

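The number of members called was recomputed under each alternative. For MAM against vehicle in Mgmt-/- brain, the 0 called at 6 hr became 5 without the laboratory filter, 6 without the fold threshold, 17 without both, 1 when any probe set of a gene counted, 5 in a fit of all arrays at once, 1 in number set 1 and 13 in number set 2. At 24 hr the 0 became 2 without the fold threshold, 6 without both, 1 in a fit of all arrays and 9 in number set 2. At 48 hr it became 1 without both, and at 168 hr 1 without the fold threshold, without both, with any probe set and in number set 2. For the interaction, the 0 became 1 at 6 hr with any probe set and in number set 2, 1 at 24 hr in number set 2 and 1 at 48 hr in a fit of all arrays. For Mgmt-/- against wt in vehicle brain, the 0 at 6 hr became 1 without the filter, with the RNA 3'/5' index in the fit or not, 1 without filter and fold threshold, 1 in a fit of all arrays, 1 in number set 1 and 7 in number set 2. At 24 hr it became 2 without the filter (1 with the index as well), 4 without the fold threshold, 7 without both, and 1 in a fit of all arrays and in each number set. At 48 hr the 1 called became 2 without the fold threshold, without both and with any probe set, and 0 by the ordinary linear model, in a fit of all arrays and in each number set. At 168 hr the 0 became 1 without the filter, without both, in a fit of all arrays and in number set 1. Leaving out 1 animal at a time gave 0 to 3 members for MAM in Mgmt-/- brain at 6 hr, 0 to 1 at 48 hr and 0 to 1 at 168 hr, 0 to 2 for the interaction at 6 hr and 0 to 1 at 48 hr, and 0 to 2 for the genotypes in vehicle brain at 48 hr. All other counts of members called, wt brain and time in vehicle included, were within 1.5 times the main count (567 of 643 alternatives in all), and the cause of the changes was not tested. Of 456 alternative medians over the members, leaving out each animal included, 450 moved by less than the SD between animals, and the rest were the number sets alone at 24 hr, for MAM in Mgmt-/- brain (-0.0042 and -0.19) and for the interaction (0.045 and -0.18), and the index as a covariate at 48 hr, for the interaction (0.025) and for the genotypes (0.10). The fits of 1 number set hold 3 animals or fewer per group, and they and the fit of all arrays used no laboratory filter. Leaving out filter and fold threshold together, the filter with the index added, and the medians without each animal were chosen after seeing the data. No paired analysis was possible because each animal has a number of its own and gave 1 array.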
